A study of Mus musculus with 6 samples.

Results

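The eicosanoid genes of LPS-stimulated RAW 264.7 cells, a mouse macrophage-like line, were examined for their response to 15(S)-HETE, itself an eicosanoid made from arachidonic acid by lipoxygenases. The set was a list of 38 genes, 26 for enzymes that release, convert, reacylate or break down arachidonic acid and its products and 12 for receptors, defined by gene symbol. Each gene was read at array probes to which the platform annotation gives that symbol and no other. This found 31 of the 38 genes, 19 enzymes and 12 receptors, each at 1 probe, among 13840 genes so named on the array. The other 7 (Ptgs1, Ptgs2, Tbxas1, Alox15, Alox5, Ltc4s and Pla2g12a) had no such probe and were not analysed here. They include both cyclooxygenases, 5-lipoxygenase and the 12/15-lipoxygenase.

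Total RNA was taken 24 h after stimulation from 3 samples given 40 μM 15(S)-HETE and 1 μg/mL LPS, a bacterial endotoxin that activates macrophages, and from 3 samples given 1 μg/mL LPS alone. Each sample pooled 6 wells and was described as a biological replicate, and no vehicle was named for the LPS samples. Both groups were therefore LPS-activated, and unstimulated cells were not compared. Labelled cRNA was read by chemiluminescence on mouse genome survey arrays of 33012 probes. The authors deposited quantile-normalized intensities on a linear scale, with a median of 837 in each sample. Intensities compare samples at the same probe. Between genes they served only to tell dim from bright probes and to sum lists of markers, not to compare amounts of RNA.

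Eicosanoids are signalling lipids made on demand. Phospholipases A2 free arachidonic acid from membranes and acyltransferases put it back. Cyclooxygenases with the terminal synthases turn it into prostaglandins and thromboxane, and lipoxygenases turn it into leukotrienes and HETEs. The products leave the cell and act on G protein-coupled receptors. Activated macrophages are a well-known source of prostaglandin E2, D2 and leukotrienes.

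Among the 31 genes, Ptger2 rose after 15-HETE. It encodes EP2, a prostaglandin E2 receptor that raises cyclic AMP. Its intensities were 13293, 15162 and 12824 in the 15-HETE + LPS samples, against 4339, 5138 and 4377 in the LPS samples. All 3 treated values lay more than 2-fold above every LPS value. The difference was 1.58 on the log2 scale, or 2.98-fold (standard error 0.18, 95% interval 1.14 to 2.02, adjusted p = 0.0362 from limma over all probes). It was the single call among the 31 genes, where 0.509% of all probes were called higher and 0.442% lower, and 0 of the 31 were called lower. Since the study also picked Ptger2 from these same samples, its direction here adds no independent evidence. The difference stayed between 1.50 and 1.65 whichever sample was dropped, although limma then called 0 of the 33012 probes. By a t-test of unequal variances adjusted over all 33012 probes, which also called 0, the adjusted p of Ptger2 was 0.0823. The study adjusted only over probes past its filters and fold rule, so its own p is not repeated here. In bulk RNA, more cells that express a gene and more of its RNA per cell cannot be told apart.

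The next genes by p were enzymes, and neither passed at the default settings. Lpcat3, which esterifies arachidonic and other polyunsaturated acids into phospholipids, had intensities of 8544, 10720 and 9070 in the 15-HETE + LPS samples and of 4504, 3327 and 2890 in the LPS samples. Its difference was 1.42 on the log2 scale (standard error 0.23, adjusted p = 0.0571 from limma). Hpgds, the haematopoietic prostaglandin D2 synthase, had intensities of 34783, 30307 and 28577 in the treated samples, against 15290, 15205 and 11930 in the LPS samples. The groups stood apart at both genes, and the difference at Hpgds was 1.15 (standard error 0.20, adjusted p = 0.0603). When the prior variance of limma was allowed to follow intensity, an alternative called the intensity trend below, 4 of the 31 genes were called higher and 0 lower, against 3.87% and 4.96% of all probes. These were Ptger2 (adjusted p = 7.03e-04), Hpgds (0.00213), Lpcat3 (0.00347) and the secreted phospholipase Pla2g5 (0.0246). Ptger2, Hpgds and Lpcat3 kept that call with each of the 6 samples left out in turn, and Pla2g5 kept it only without LPS replicate 1.

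**Figure D1:**
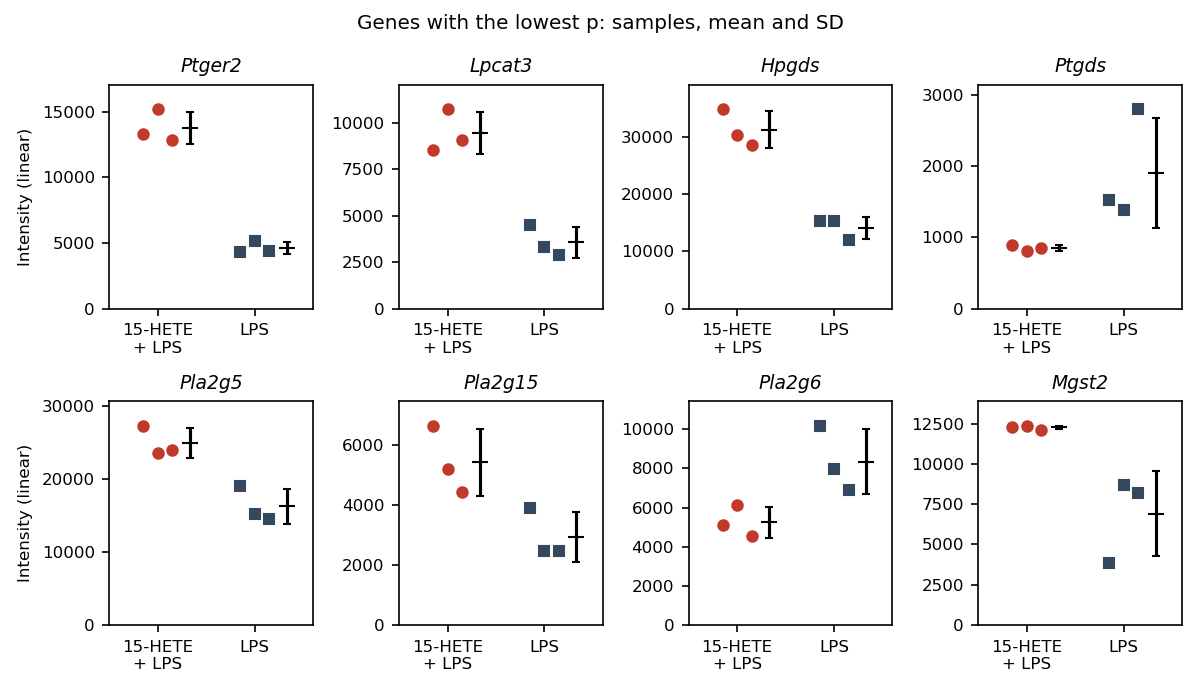
Intensity (linear axis from 0) of the 8 genes with the lowest p among the 31, with 15-HETE + LPS samples as circles on the left, LPS samples as squares on the right, and black bars for the mean and SD of 3 samples. At each of the 8 genes the groups did not overlap, and Ptgds and Pla2g6 were the ones lower in the 15-HETE + LPS samples.

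The promoters of these 3 leading genes are shown because they are the members whose difference held in every fit with the intensity trend. Each is the 250 bases before the RefSeq start (GRCm38.p6), on the gene's own strand, and capitals mark matches to any of 8 short motifs on either strand. Ptger2 lies at chr14:44987861-44988110 (plus strand), Lpcat3 at chr6:124662854-124663103 (plus strand) and Hpgds at chr6:65144731-65144980 (minus strand).
Ptger2: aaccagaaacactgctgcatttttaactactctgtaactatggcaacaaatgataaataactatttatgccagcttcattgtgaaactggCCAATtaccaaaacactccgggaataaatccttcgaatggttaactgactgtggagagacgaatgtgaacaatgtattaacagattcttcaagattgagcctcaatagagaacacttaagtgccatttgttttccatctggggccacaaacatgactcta
Lpcat3: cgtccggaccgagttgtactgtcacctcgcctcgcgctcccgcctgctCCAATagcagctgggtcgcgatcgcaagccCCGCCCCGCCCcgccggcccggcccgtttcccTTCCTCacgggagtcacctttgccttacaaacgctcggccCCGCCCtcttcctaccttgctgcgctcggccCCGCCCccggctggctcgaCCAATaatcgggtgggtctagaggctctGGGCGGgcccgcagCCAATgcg
Hpgds: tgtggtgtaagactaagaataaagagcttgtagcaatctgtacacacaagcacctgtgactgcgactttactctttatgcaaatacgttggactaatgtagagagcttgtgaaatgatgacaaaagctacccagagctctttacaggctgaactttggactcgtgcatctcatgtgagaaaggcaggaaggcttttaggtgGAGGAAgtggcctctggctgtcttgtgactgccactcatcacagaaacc
The 3 windows had little in common. The GC content was 38% at Ptger2, 70% at Lpcat3 and 45.2% at Hpgds, against a median of 52.4% over 32851 windows of the same length. The Lpcat3 window held 5 copies of the GC box GGGCGG (some overlapping), 3 of the CCAAT box CCAAT and 1 of the PU.1 core GAGGAA. The Ptger2 window held 1 CCAAT, and the Hpgds window 1 GAGGAA. Over all windows GGGCGG was found in 32.7%, CCAAT in 33.8% and GAGGAA in 23.3%, and over the 27 members with a window in the table in 15, 11 and 11. The cyclic AMP response element TGACGTCA was in 1.55% of all windows and in 0 of the 27, and TGACG, which lies within it, was in 17.8% and in 3 of the 27. The nuclear receptor half-site AGGTCA was in 14.0% and in 5 of the 27, TATAAA in 12.4% and in 2, and the AP-1 site TGANTCA in 6.75% and in 2. None of these last 5 motifs was in the windows of the 3 leading genes. These are matches of letters, which say nothing of whether a factor binds.

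Seen over the set, 21 of the 31 genes had a positive and 10 a negative log2 difference, with a median of 0.300, beside a median of 0.00733 and 50.5% positive over all probes and of 0.0214 and 51.6% over all genes read at their brightest probe. The 3 treated values lay wholly above the 3 LPS values at 11 genes and wholly below at 4. Among all probes this was so for 13.7% and 16.3%, and among genes read at their brightest probe for 17.5% and 17.7%. At an unadjusted p under 0.05, 7 genes were higher and 2 lower, where 8.62% of all probes were higher and 11% lower. An exact permutation test of 3 samples against 3 cannot go below p = 0.1, so non-overlap is given as a count. By fold alone, with 2 or more treated samples past 1.8-fold of the LPS mean, Ptger2, Lpcat3 and Hpgds were higher (as were 6.88% of probes) and Ptgds, Ephx2 and Gpr132 lower (10.3% of probes).

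**Figure D2:**
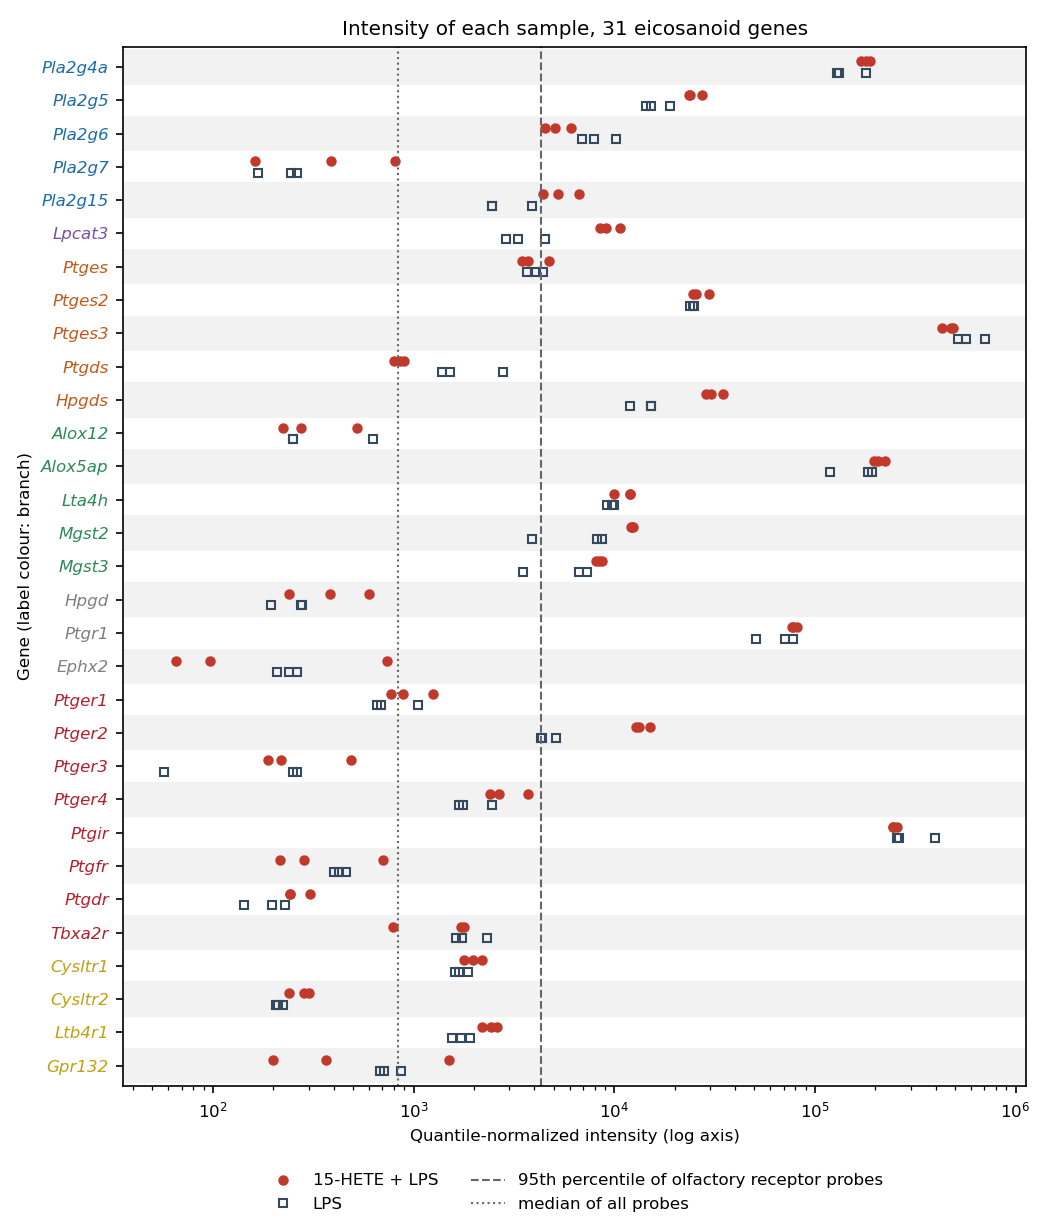
Quantile-normalized intensity (log axis) of the 31 genes in each sample, with 15-HETE + LPS as filled circles above LPS as open squares in each row. The dotted line is the median of all probes (837) and the dashed line the 95th percentile of olfactory receptor probes (4330), and 10 of the 12 receptor genes lie to the left of the dashed line.

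Most receptor probes were dim. As a guide to dim signal, the 747 probes of olfactory receptors, genes not known for expression in macrophages, had a median intensity of 440 and a 95th percentile of 4330. Of the 19 enzymes 12 had a mean above that percentile, and of the 12 receptors 2 had (Ptger2 and the prostacyclin receptor Ptgir). The median log2 difference was 0.300 over the enzymes and 0.324 over the receptors. Without LPS replicate 1 these medians were 0.262 and 0.161. Among enzymes 13 of 19 differences were positive, with groups apart at 7 genes on the higher and 3 on the lower side. Among receptors 8 of 12 were positive, with groups apart at 4 and 1. Both are to be read beside the 17.5% and 17.7% of genes on the array. The 17 genes at or under the olfactory level had a median difference of 0.291 and the 14 above it 0.335.

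The sample LPS replicate 1 stood apart from the other LPS samples and touched several of these values. Of the 9636 probes above the olfactory level, it was the farthest of the 3 LPS samples at 72.0%, against 13.9% for replicate 2 and 14.1% for replicate 3. It was the farthest at 18 of the 31 genes and at 11 of the 14 bright ones, below both other LPS samples at 11 genes and above both at 16. Across probes, log2 values correlated at 0.955 to 0.962 within 15-HETE + LPS, at 0.972 to 0.979 within LPS and at 0.943 to 0.962 between the groups. No source names which arrays were hybridized together, so an array set and the treatment cannot be told apart. Macrophage identity was checked in both groups. All 6 macrophage markers measured of 11 listed (Adgre1, Lyz2, Itgam, Cd14, Ctss and Spi1) were above the olfactory level, with differences of -0.22 to 0.32, none called. Of markers of other cells, 2 of 3 platelet markers (Pf4 and Gp9) and 1 of 9 mast cell and granulocyte markers (Tpsb2) were above it, with values given below. So were 0 of 2 lymphocyte markers and 1 of 6 fibroblast and epithelial markers (Col1a2, -0.13). Krt8, of the last list and under that level, had -1.05 with groups apart (adjusted p = 0.112, and 0.0380 with the intensity trend).

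**Figure D3:**
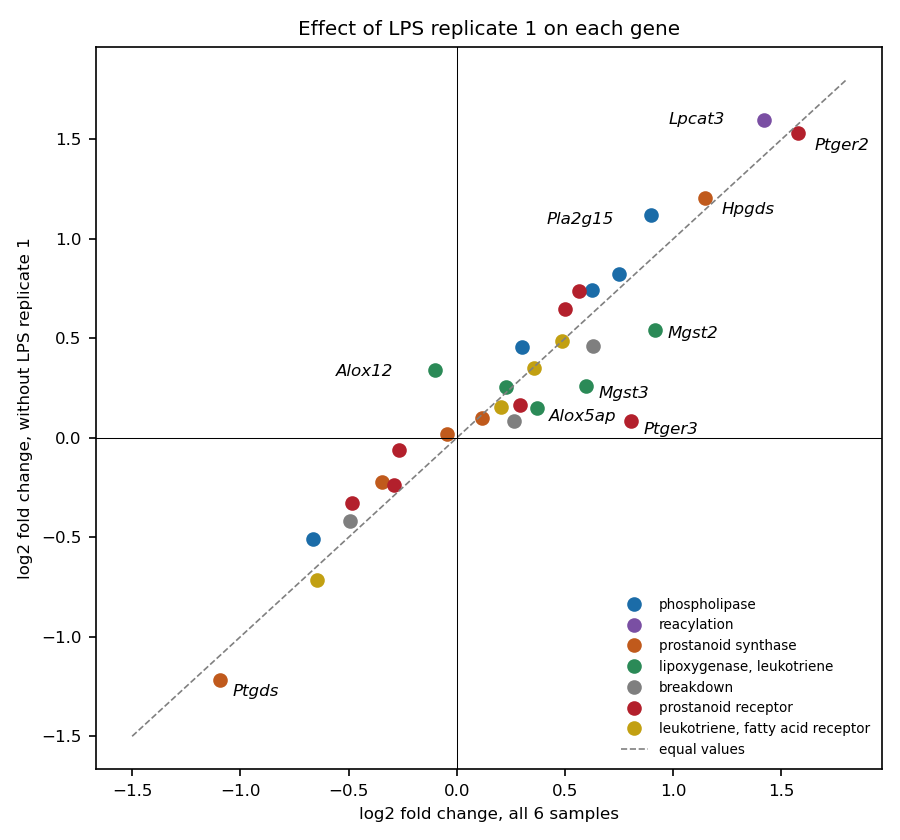
Log2 difference, 15-HETE + LPS minus LPS, of each of the 31 genes with all 6 samples (horizontal axis) and without LPS replicate 1 (vertical axis), coloured by branch, with the dashed line marking equal values. Mgst2, Mgst3, Alox5ap and Ptger3 lie below the dashed line, with smaller differences once that sample is left out, and Lpcat3 and Pla2g15 lie above it.

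Phospholipases were mixed, with 4 of 5 measured genes positive and a median of 0.624. Pla2g5, a secreted enzyme that acts on the outer face of membranes, had intensities of 27234, 23475 and 23892 in the 15-HETE + LPS samples and of 18949, 15234 and 14461 in the LPS samples. The groups did not overlap, and the difference was 0.62 (standard error 0.19, adjusted p = 0.158 by default). Pla2g15, the lysosomal phospholipase A2, had 6647, 5222 and 4427 in the treated samples, against 3911, 2469 and 2463 in the LPS samples. It too stood clear of the LPS values, by 0.90 (standard error 0.28, adjusted p = 0.155), and by 1.12 without LPS replicate 1. Pla2g6, the calcium-independent phospholipase that acts in membrane upkeep, ran the other way, with 5084, 6113 and 4535 in the treated samples and 10172, 7950 and 6912 in the LPS samples. Every treated value was below every LPS value, a difference of -0.66 (standard error 0.23, adjusted p = 0.191). Pla2g4a, the cytosolic enzyme that is selective for arachidonic acid, was bright, with 180707, 187428 and 169274 in the treated samples and 180707, 132522 and 128250 in the LPS samples. The groups overlapped through LPS replicate 1, and the difference was 0.30 with all samples and 0.46 without that replicate. Pla2g7, which hydrolyses platelet-activating factor, was dim and scattered (0.75, groups overlapping).

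The prostanoid synthases showed no common direction (median -0.0436 over 5 of 8 genes). The enzymes that make prostaglandin D2 stood on opposite sides. Hpgds was 2.21-fold higher in the treated samples, as given above. Ptgds, the lipocalin-type synthase of the same product, had 891, 803 and 853 in the treated samples, against 1528, 1388 and 2799 in the LPS samples. The treated values lay close together below all LPS values, a difference of -1.09 (standard error 0.30, adjusted p = 0.130), which did not pass. Its probe was near the array median and below the olfactory level, and without LPS replicate 3, its highest value, the difference was -0.78. The synthases of prostaglandin E2 had smaller differences. Ptges, the inducible microsomal form, had 3462, 4715 and 3727 in the treated samples and 4433, 4065 and 3697 in the LPS samples. These overlapped throughout, with a difference of -0.04 and a 95% interval of -0.53 to 0.45, and the sign turned with cyclic loess normalization and when LPS replicate 1 or 15-HETE + LPS replicate 1 was left out. Ptges2, a membrane-associated form, was 0.12 higher with groups overlapping. Ptges3, the cytosolic form that is also the HSP90 co-chaperone p23, had 490512, 475868 and 429725 in the treated samples, against 702698, 518269 and 565433 in the LPS samples. All 3 treated values were lower, by 0.35 on the log2 scale (95% interval -0.82 to 0.13, adjusted p = 0.388).

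Since Hpgds is also known from mast cells, markers of mast cells and granulocytes were read beside it. Of 9 measured of 10 listed, 1 was above the olfactory level, the tryptase Tpsb2, and none is listed at 0 on this array, whose lowest value was 46.2. The summed intensity of the 9, nearly all of it from Tpsb2, ran from 60287 to 77386 in the 15-HETE + LPS samples and from 92530 to 104467 in the LPS samples, and that of the 8 others from 3706 to 4397 in the 15-HETE + LPS samples and from 5285 to 6183 in the LPS samples. Differences were positive at 5 of the 9, among them Fcer1a (0.67), Prg2 (0.42) and Cpa3 (0.14), and negative at 4, among them Mpo (-1.38), Elane (-1.08) and Tpsb2 (-0.50). None was called by default, and under the intensity trend Mpo (adjusted p = 0.0290) and Tpsb2 (0.0442) were called lower. All samples were cultures of a macrophage-like line, so these markers too were read in RNA of that line. How they relate to the values of Hpgds was not tested.

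**Figure D4:**
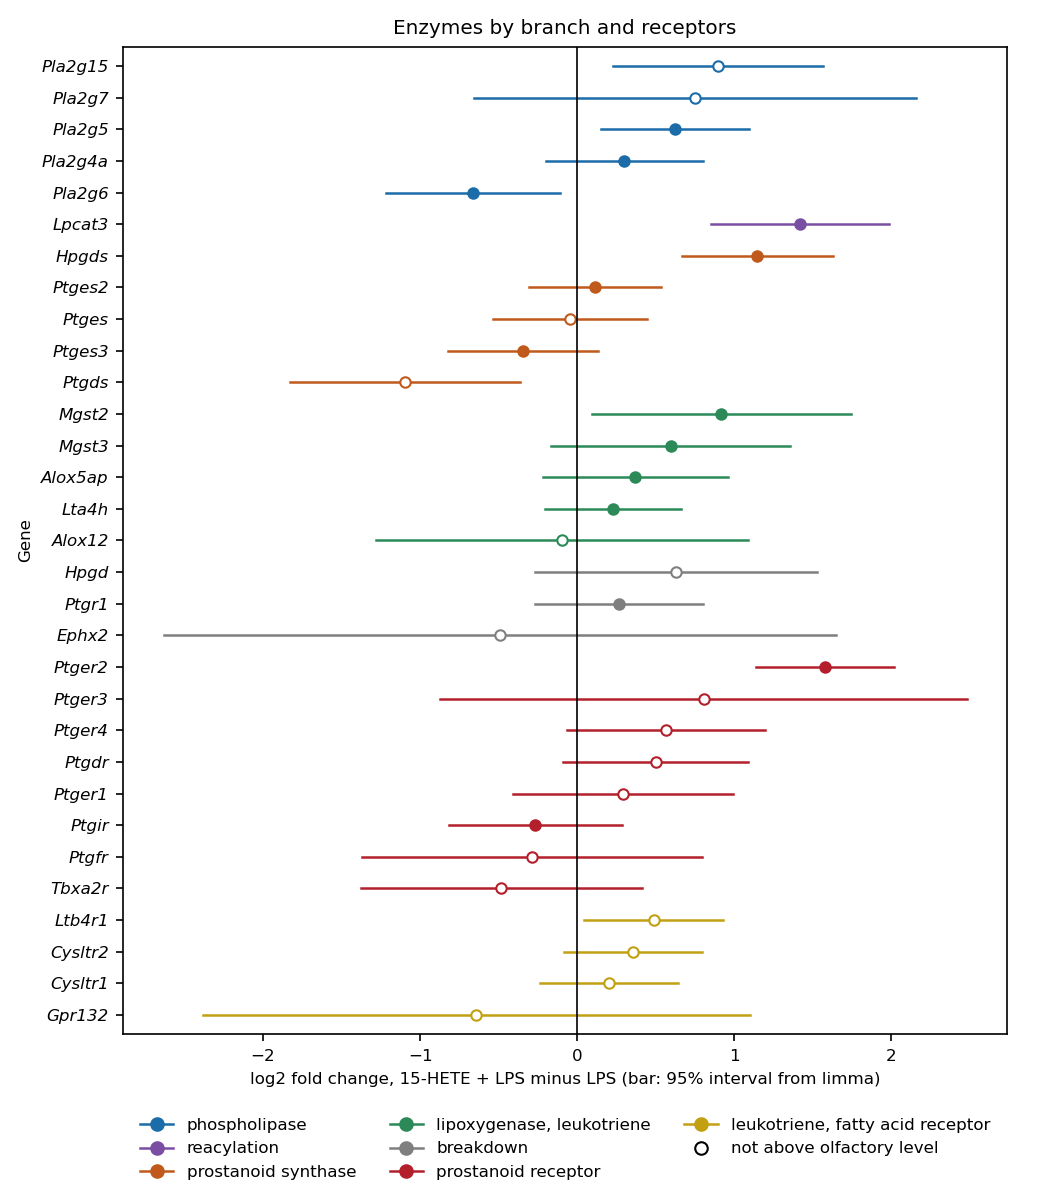
Log2 fold change, 15-HETE + LPS minus LPS, with the 95% interval from limma for each of the 31 genes, grouped from phospholipases at the top to receptors at the bottom and sorted within each branch. Open points are probes at or below the olfactory level, and the widest intervals (Ephx2, Gpr132 and Ptger3) belong to such probes.

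In the leukotriene branch 4 of 5 genes were positive (median 0.369, and 0.262 without LPS replicate 1), and at 3 of them much of the size rested on that sample. Mgst2, a microsomal glutathione transferase able to make leukotriene C4, had 12294, 12363 and 12135 in the treated samples, against 3873, 8677 and 8166 in the LPS samples. The groups were apart, with a difference of 0.92 (standard error 0.34, adjusted p = 0.215) that was 0.54 without LPS replicate 1. Mgst3, its relative, had 8365, 8704 and 8158 in the treated samples and 3506, 6677 and 7355 in the LPS samples. Here again LPS replicate 1 was the low one, and the difference was 0.60 with it and 0.26 without it. Alox5ap, the protein that presents arachidonic acid to 5-lipoxygenase, had 197880, 223441 and 206035 in the treated samples, against 118921, 183700 and 193430 in the LPS samples. The treated values were higher by 0.37, and by 0.15 without that sample (adjusted p = 0.448 with all samples). Lta4h, which makes leukotriene B4, was 0.23 higher with overlap, and Alox12, the platelet-type 12-lipoxygenase, was dim (-0.10, and 0.34 without LPS replicate 1).

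Since some of these enzymes are also known from platelets, platelet markers were read beside them, and Pf4 had its lowest value in LPS replicate 1, as Mgst2 had. Pf4 intensities were 32225, 33518 and 30748 in the treated samples, against 4384, 14675 and 13782 in the LPS samples (1.74, adjusted p = 0.130, and 0.0229 with the intensity trend). Gp9, another platelet marker, instead had its highest value in LPS replicate 1, with 44243, 36342 and 40042 in the LPS samples. Its difference was -0.89 (adjusted p = 0.123, and 0.0144 with the intensity trend). Gp1bb had -0.53 with overlap, and there LPS replicate 1 lay between the other LPS samples. With the trend and a sample left out, Gp9 was called lower in 6 of 6 fits and Pf4 higher in 3. The summed level of the 3 platelet markers measured of 4 listed ran from 49691 to 57662 in the treated samples and from 49512 to 54969 in the LPS samples. These markers too were read in RNA of the cultured macrophage-like line. How they relate to the values of the leukotriene genes was not tested.

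Enzymes of breakdown gave no gene with groups apart. Ptgr1, which reduces the double bond of 15-keto prostaglandins and also oxidizes leukotriene B4, was the bright one of the 3, with differences of 0.27 and, without LPS replicate 1, of 0.08. Hpgd, the dehydrogenase that starts the inactivation of prostaglandins and accepts 15-HETE as a substrate, was dim, with 240, 597 and 384 in the treated samples and 194, 275 and 278 in the LPS samples. The groups overlapped, with a difference of 0.63 (95% interval -0.27 to 1.53). Ephx2, the soluble epoxide hydrolase, ran from 65.8 to 734 in the treated samples, and its difference of -0.49 had an interval of -2.63 to 1.64.

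The 8 prostanoid receptors had a median difference of 0.395, which was 0.124 without LPS replicate 1, and the 4 among them that bind prostaglandin E2 were uneven. Beside Ptger2, the other receptor that couples to cyclic AMP, Ptger4 (EP4), had 2660, 3726 and 2412 in the treated samples, against 2467, 1686 and 1771 in the LPS samples. LPS replicate 1 lay above the lowest treated value, and the difference was 0.57 (standard error 0.26, adjusted p = 0.295). Ptger1 (EP1), which acts through calcium, had 776, 1254 and 889 in the treated samples and 655, 1051 and 687 in the LPS samples, near the array median and overlapping (0.29). Ptger3 (EP3), which lowers cyclic AMP, had 218, 490 and 189 in the treated samples, against 57.3, 263 and 251 in the LPS samples. Its difference of 0.80 rested on the low value of LPS replicate 1 and was 0.08 without it. The difference between the response of Ptger2 and that of the other receptors was not tested.

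Ptgir, the prostacyclin receptor, had a bright probe, with 244631, 244631 and 256223 in the 15-HETE + LPS samples and 395374, 261584 and 257537 in the LPS samples. The treated values were just below the LPS values, by 0.27 on the log2 scale, and the difference was -0.06 without LPS replicate 1. Equal values in different samples come from quantile normalization, which gives the same rank the same value. Ptgdr, the DP1 receptor of prostaglandin D2 and the next protein-coding gene to Ptger2 on chromosome 14 in RefSeq, had 243, 244 and 306 in the treated samples, against 229, 197 and 143 in the LPS samples. The groups were apart (0.50, adjusted p = 0.318), at intensities below the median of the olfactory receptor probes. Receptors of prostaglandin F2 (Ptgfr, -0.29) and of thromboxane (Tbxa2r, -0.48) overlapped between groups.

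Receptors of leukotrienes and oxidized fatty acids were all at or under the olfactory level, and 3 of 4 differences were positive (median 0.280). Ltb4r1, the high-affinity receptor of leukotriene B4, had 2197, 2595 and 2446 in the treated samples and 1726, 1902 and 1546 in the LPS samples. Each treated value exceeded each LPS value, by 0.49 (standard error 0.18, adjusted p = 0.220). Cysltr2, a receptor of cysteinyl leukotrienes, had 239, 300.3 and 284 in the treated samples, against 212, 224 and 205 in the LPS samples. These too were apart, by 0.36 (adjusted p = 0.337), at a dim probe. Cysltr1, the other such receptor, had 0.20 with overlap. Gpr132, described in human cells as a receptor of oxidized linoleic and arachidonic acids, had 366, 1507 and 198 in the treated samples and 677, 709 and 868 in the LPS samples. Treated values lay on both sides of the LPS values (-0.64, standard error 0.72).

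A wider list of 61 other genes of eicosanoid synthesis, arachidonate supply, breakdown, transport and reception was read in the same way, and 50 had a probe. Here 24 differences were positive and 26 negative, with a median of -0.113. The groups were apart at 10 genes on each side, near the 17.5% and 17.7% of genes on the array. Limma called 0 higher and 1 lower. Under the intensity trend it called 2 higher and 3 lower, where 3.87% and 4.96% of all probes were. The gene called lower was Fpr2, the formyl peptide receptor that also binds lipoxin A4, with 1456, 1452 and 1324 in the treated samples, against 4477, 7030 and 7491 in the LPS samples. All treated values were far below, a difference of -2.13 (standard error 0.25, adjusted p = 0.0368 from limma). Cyp4f13, a cytochrome P450 of the family that includes leukotriene and HETE hydroxylases, had 14476, 12330 and 13143 in the treated samples and 6973, 6577 and 6478 in the LPS samples. The groups were well apart, by 0.99 (standard error 0.17, adjusted p = 0.0597), and Cyp4f13 and Fpr2 were called with the intensity trend whichever sample was left out. By default the adjusted p of Fpr2 was 0.0675 to 0.185 with a sample left out, and it was 0.193 by the t-test adjusted over all probes.

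Further phospholipases of that list also differed in size and side. Plaat3, a phospholipase A and acyltransferase best known from adipocytes, had 2622, 2504 and 3161 in the treated samples, against 678, 1097 and 1332 in the LPS samples. It was higher in each treated sample, by 1.46 (standard error 0.29, adjusted p = 0.0763), at a probe under the olfactory level. With the intensity trend Plaat3 was called higher (adjusted p = 0.0209), a call it kept only without LPS replicate 1 or LPS replicate 3. Pla2g2f, a secreted enzyme, had 578, 508 and 473 in the treated samples and 317, 230 and 255 in the LPS samples, which were apart by 0.97 at a dim probe (adjusted p = 0.0835). Pla2g2f lies in the cluster of secreted phospholipases on chromosome 4 that also holds Pla2g5. There Pla2g2d, the next protein-coding gene to Pla2g5, had a difference of 0.14 with overlap and Pla2g2e, with 1 protein-coding gene between it and Pla2g5, of 0.51 (0.25 without LPS replicate 1). Plaa, the phospholipase A2-activating protein, had 71468, 76346 and 74467 in the treated samples, against 168288, 114131 and 125159 in the LPS samples. It was lower in each treated sample, by 0.85 on the log2 scale (adjusted p = 0.108, and 0.00985 with the intensity trend). Ephx1, the microsomal epoxide hydrolase, had 3410, 2728 and 2587 in the treated samples and 1479, 1753 and 1966 in the LPS samples, a difference of 0.75 with groups apart (adjusted p = 0.133). Faah, which hydrolyses the arachidonate-containing endocannabinoid anandamide, completed the genes called lower by that alternative (-0.71, adjusted p = 0.0460 there and 0.136 by default).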

How the data were processed

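Total RNA of 6 samples was measured on mouse genome survey arrays. The authors read the scans in the AB1700 system's software (version 1.1.1) and deposited linear intensities after quantile normalization. Sorted values differed by at most 0.223% between samples, and the later filter on signal and flag values was not repeated. The deposited intensities of 33012 probes were turned to log2. R 4.3.3 with limma 3.58.1 fitted every probe (two-sided, eBayes at its default prior), p-values were adjusted by Benjamini-Hochberg across the array, and an adjusted p under 0.05 counted as a call. The platform annotation gave 1 symbol to 14411 probes, several to 247 and none to 18354. Promoters came from RefSeq (GRCm38.p6). The scripts were tested on simulated data, and precision is limited by having 3 arrays a group.

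The members and lists were chosen with earlier results of these data known. Values of every sample were given for members with an unadjusted p under 0.05 or no overlap, for Ptges and for the prostaglandin E receptors. Of the wider list the called genes and the 6 with the lowest p were named, and Faah, Pla2g2d, Pla2g2e and the marker genes given singly were added after their values were seen. Alternatives were the intensity trend, a t-test of unequal variances, and 1.8-fold in 2 or more treated samples with limma's adjusted p of at most 0.025. The last 2 were adjusted over all probes, where the methods tested only probes past the fold rule. Others were an offset of 100, cyclic loess, 2 filters on dim probes, the mean over probes, a block on the replicate number, and the omission of each sample. The intensity trend with a sample left out was added after seeing the data.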

Additional observations from a re-analysis of the deposited data

How the results depend on the processing

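By default limma called 1 of the 31 genes higher (Ptger2). The count was 4 with the intensity trend and 3 with an offset of 100 (Ptger2, Lpcat3 and Hpgds), where 1279 and 345 of 33012 probes were called higher. Among probes above the array median it was 4 of 22 members, where 1203 of 16506 probes were called higher. Among probes above the olfactory level it was 5 of 14 members, where 1310 of 9636 were. Both filters changed the set of probes fitted as well as the number adjusted. It was 0 by a t-test of unequal variances adjusted over all 33012 probes, and 0 by the 1.8-fold rule with limma's adjusted p. The study tested only probes past its filters and fold rule, so neither count repeats its procedure. By default the count was also 0 with any sample left out. Genes called lower numbered 0 by default. There was 1 among probes above the array median (Ptgds), where 1597 of 16506 probes were called lower. Another 1 was called above the olfactory level (Pla2g6), where 1608 of 9636 were. With the intensity trend, leaving out a sample gave 3 to 7 genes higher, with 7 without LPS replicate 1 (Pla2g4a, Pla2g15 and Mgst2 beside the 4) and 0 lower. Without LPS replicate 1 that fit called 2595 of 33012 probes higher and 2540 lower. Without any other sample it called 535 to 727 higher and 688 to 938 lower. The median over all members ran from 0.255 (without LPS replicate 1) to 0.408 (without 15-HETE + LPS replicate 1) and over receptors from 0.161 to 0.446, and it was 0.655 over the 2 receptors above the olfactory level. Ptges, -0.04 by default, was 0.0133 with cyclic loess and -0.174 (without 15-HETE + LPS replicate 2) to 0.0484 (without 15-HETE + LPS replicate 1). Of 25 genes followed through the alternatives, Ptges was the 1 gene that reversed. Most of the 25 were chosen for a low p or groups apart. A gene with groups apart keeps its sign whichever sample is left out, so few reversals followed from that choice. Over the 31 members, 4 changed sign with a sample left out. These were Ptges, Alox12 (to 0.34 without LPS replicate 1), Ephx2 (to 0.18 without 15-HETE + LPS replicate 3) and Ptgfr (to 0.06 without 15-HETE + LPS replicate 2). Their groups overlapped, which such a change of sign requires. The cause of these changes was not tested. With the replicate number as a block 0 members were called, and same-numbered samples correlated at -0.02 to 0.02 in their deviations. The labels do not say whether the numbers pair the samples, and these correlations cannot decide it.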
